A study of Homo sapiens with 8 samples.

Results

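The 9 genes described here encode enzymes of the tricarboxylic acid (TCA) cycle, and 2 of them, SDHA and SDHB, are also subunits of respiratory complex II. They were chosen by name from the 11244 genes in the deposited table of translation efficiency (TE), and all 9 were found there. Earlier results of these data were known when they were chosen. The table comes from ribosome profiling of cells labelled HepG2, an established human liver cancer line, that either carried an intact METTL5 gene (METTL5-WT) or had it disrupted with a pair of CRISPR-Cas9 guides (METTL5-KO). The deletion spans exons 2 to 3 by the labels and exons 3 to 4 by the study's methods. METTL5, with its partner TRMT112, places an N6-methyladenosine mark on 18S ribosomal RNA. Cells of both genotypes received 100 ug/mL cycloheximide for 7 min, which holds ribosomes in place on the message. Of each lysate 20% served as input RNA. Micrococcal nuclease digestion of the remainder left ribosome-protected fragments (RPF). These were size-selected on a gel, and reads of 25 to 34 nt were kept. This gave 4 groups of 2 libraries, which were METTL5-WT input, METTL5-KO input, METTL5-WT RPF and METTL5-KO RPF. Both genotypes were grown from isolated single clones, and which clone gave which replicate is not stated, so a difference between clones cannot be told apart from a difference between genotypes. With 2 samples per group, p-values measure only the spread between these samples. Groups of 2 that do not overlap arise with a probability of 0.333 even without a difference. The share of all genes with such groups was not counted.

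The TCA cycle runs in the mitochondrial matrix, where it oxidizes acetyl groups to carbon dioxide and passes the electrons on to NADH and ubiquinol. All of its enzymes are encoded in the nucleus, translated in the cytosol and imported. Several work as large assemblies, such as the oxoglutarate dehydrogenase complex, and complex II is the enzyme shared by the cycle and the respiratory chain, with SDHA holding the flavin and SDHB the iron-sulfur clusters.

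In METTL5-KO the ribosome footprints of 7 of the 9 enzymes rose, by 1.31-fold for IDH3A to 1.84-fold for SDHB, and 0 fell, where 16.2% of all genes tested rose and 13.1% fell. Input RNA rose for 3 of the 9, IDH3A, OGDH and SDHB, against 11.8% of all genes. TE, the RPF signal relative to input, rose for 1, the fumarate hydratase gene FH, against 2.7% of all genes, and lost that call when any 1 lysate was left out. A gene was called at a Benjamini-Hochberg adjusted p under 0.05 over all genes tested, in edgeR for input and in limma for RPF and TE.

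The input libraries held 10710226 to 15307257 counts. The RPF libraries held 3970779 and 4592443 reads for METTL5-WT against 8626705 and 9255921 for METTL5-KO, so the METTL5-WT RPF values are the least precise. METTL5 itself had 490 and 542 input counts in METTL5-WT against 208 and 151 in METTL5-KO, with 158 and 226 against 41 and 21 RPF reads. The label of the cells was not borne out by their hepatocyte markers. All 11 hepatocyte markers examined stayed at 9 input counts or fewer in every library, with albumin (ALB) at 0, 0, 0 and 1 and AFP at 0, 0, 5 and 9, and none of the 11 is in the TE table. Of 8 markers of blood, endothelial and fibroblast cells, COL3A1 had 2536 to 3317 counts, DCN had 83 to 170 and the other 6 had at most 6. The cells are therefore called here only by their label and genotype.

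The members are placed on hg38 as follows, with the strand after each. Citrate synthase, CS, which joins acetyl-CoA to oxaloacetate, lies at chr12:56271699-56300391 (minus). IDH3A, the catalytic subunit of NAD-dependent isocitrate dehydrogenase, lies at chr15:78131498-78171945 (plus). OGDH, the first enzyme of the oxoglutarate dehydrogenase complex, lies at chr7:44606572-44709066 (plus), and DLST, the succinyltransferase core of that complex, at chr14:74881891-74903743 (plus). SUCLG1, the alpha subunit of succinyl-CoA ligase, lies at chr2:84423528-84460045 (minus). SDHA is at chr5:218241-257082 (plus) and SDHB at chr1:17018722-17054032 (minus). FH, which hydrates fumarate to malate, lies at chr1:241497603-241519755 (minus), and MDH2, the mitochondrial malate dehydrogenase that closes the cycle, at chr7:76048051-76067508 (plus).

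The sequence around each start codon is shown because it is the part of the message where a scanning ribosome begins, and the members differ there. Each run is 30 bases of the canonical GENCODE 44 transcript, with 9 bases before the start codon, and the capitals mark the base 3 before the start codon, the ATG and the base after it.
CS: tcgcccGccATGGctttacttactgcggcc
IDH3A: ggggaaGcgATGGctgggcccgcgtggatc
OGDH: aggacaAaaATGTttcatttaaggacttgt
DLST: tccgccGtgATGCtgtcccgatcccgctgt
SUCLG1: cattggCgtATGAccgcaacccttgccgct
SDHA: acagcaGacATGTcgggggtccggggcctg
SDHB: ggagccAagATGGcggcggtggtcgccctc
FH: ctcagcAccATGTaccgagcacttcggctc
MDH2: gctccaGccATGCtctccgccctcgcccgg

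A purine (A or G) stood 3 bases before the ATG in 8 of the 9 members, against 87.3% of the 11121 TE table genes with at least 9 bases before the ATG, and SUCLG1 was the exception with a C. A G followed the ATG in CS, IDH3A and SDHB, which is 33.3% of the members against 54.3% of those genes. FH, the member whose TE rose, has a purine before the ATG and a T after it. The members' coding sequences, stop codon included, ran from 843 bases in SDHB to 3072 in OGDH with a median of 1362 bases, close to the 1428 of the 11211 TE table genes with an annotated coding sequence and above the 420 of 72 respiratory chain and ATP synthase subunits. Of those 72 subunits, 12 had a longer coding sequence than SDHB. Coding GC content was 46.0% in FH to 57.2% in MDH2, with a median of 50.7% against 52.3% over the table.

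Levels were compared between genes only per length, as input value per kb of exon and RPF value per kb of coding sequence, where a value is reads divided by the size factor of its library. In METTL5-WT, input was 773.5 ± 30.5 per kb (SD, n = 2) for FH, 657 ± 40.3 for SDHB and 440 ± 11.7 for MDH2. SUCLG1 and OGDH followed at 318 ± 4.71 and 314 ± 7.01 and overlapped, ahead of CS at 270 ± 9.23, IDH3A at 140 ± 0.246 and DLST at 128 ± 7.98. SDHA was last by a wide margin at 17.0 ± 0.610. With the length of the canonical transcript in place of all exons, SDHB, SUCLG1 and FH led in that order and SDHA was still last, at 55.2 ± 1.99 per kb.

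By footprints per kb of coding sequence in METTL5-WT, MDH2 was highest at 2473 ± 268. SDHB at 2026 ± 92.5 and SUCLG1 at 1991 ± 82.8 overlapped, FH stood at 1559 ± 11.3, and OGDH, IDH3A and CS ran from 960 to 892 with each overlapping the next. SDHA at 349 ± 40.2 and DLST at 297 ± 13.1 were lowest. In METTL5-KO, SDHB at 3735 ± 150 was first and overlapped MDH2 at 3544 ± 130, and DLST at 375 ± 9.34 was last and overlapped SDHA at 376 ± 30.7.

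**Figure D1:**
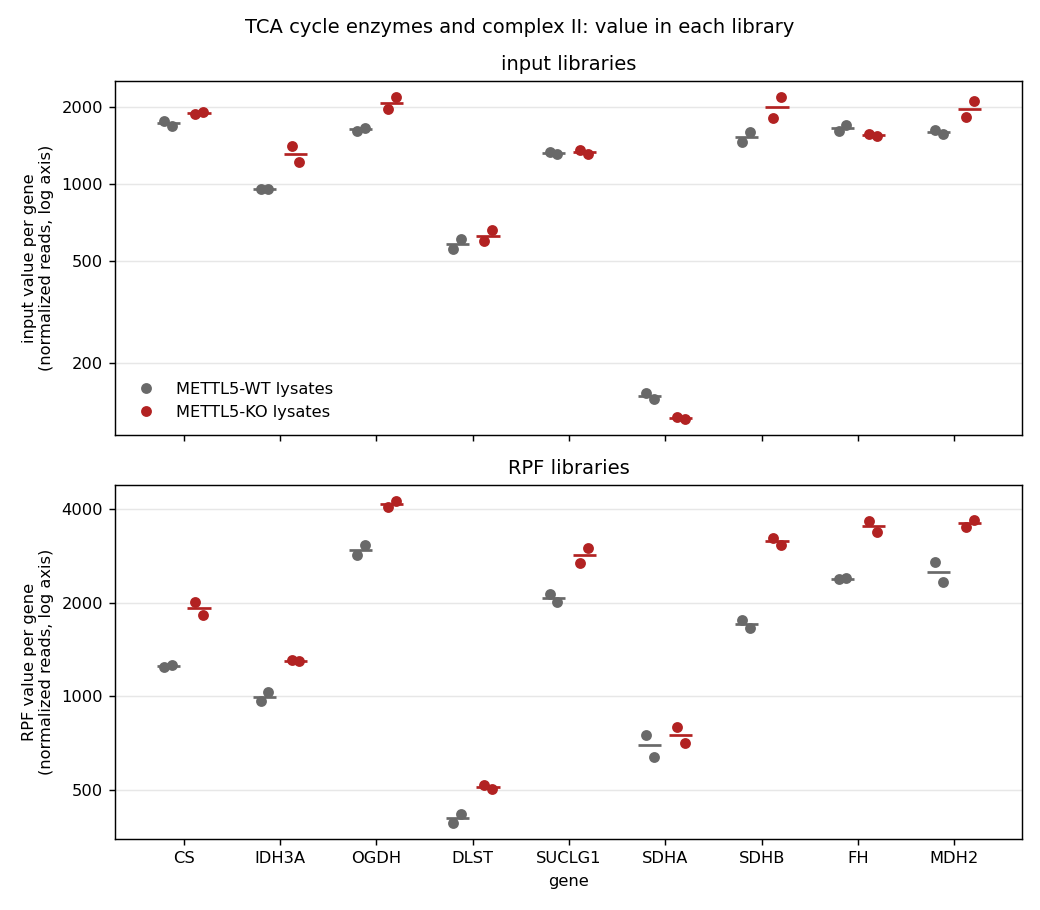
Value of each of the 9 genes in every input library (top) and RPF library (bottom), in normalized reads per gene on a log axis; points are single libraries, grey for METTL5-WT and red for METTL5-KO, and bars are means of 2. SDHA has the lowest input of the 9, and its RPF points overlap between genotypes. In RPF 7 of the 9 genes were called higher in METTL5-KO, where 16.2% of all genes tested were.

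The first question was how far the footprints of each enzyme differed between genotypes. The lysates are bulk samples, in which more signal per cell and a larger share of cells with the signal cannot be told apart. The RPF value of CS was 1245 and 1255 in METTL5-WT, against 2010 and 1829 in METTL5-KO. The 2 METTL5-KO values were both higher, by 1.54-fold (0.62 ± 0.10 on the log2 scale, ± SE, limma adjusted p = 0.000195). For IDH3A the values were 965 and 1031 against 1306 and 1299, apart by less than in CS but again without overlap (0.39 ± 0.11, limma adjusted p = 0.0116).

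The 2 members of the oxoglutarate dehydrogenase complex both had higher METTL5-KO values, and 1 of them passed the test. OGDH had RPF values of 2837 and 3060 in METTL5-WT against 4071 and 4238 in METTL5-KO, which did not overlap (0.50 ± 0.10, limma adjusted p = 0.00124). DLST, the member with the fewest RPF reads (165 to 450), had values of 392 and 417 against 520 and 502. Those groups did not overlap either, and the log2 fold change of 0.34 ± 0.12 missed the threshold (limma adjusted p = 0.0516, edgeR adjusted p = 0.0970). With the libraries centred on their medians DLST passed (limma adjusted p = 0.0435).

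SUCLG1, which works at the step that forms succinate and a nucleoside triphosphate, had RPF values of 2133 and 2012 in METTL5-WT against 2677 and 2992 in METTL5-KO. Both METTL5-KO values were above both METTL5-WT values, and the log2 fold change was 0.45 ± 0.10 (limma adjusted p = 0.00271).

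Complex II gave both the largest and the smallest RPF difference among the 9. SDHB rose from 1763 and 1653 in METTL5-WT to 3238 and 3060 in METTL5-KO (0.88 ± 0.11 on the log2 scale, limma adjusted p = 1.43e-05). SDHA had 753 and 640 against 794 and 707, groups that overlapped, with a log2 fold change of 0.11 ± 0.15 (limma adjusted p = 0.627). The SDHA value turned to -0.0079 without METTL5-WT replicate 2. The ratio of SDHA to SDHB footprints per kb was 0.172 ± 0.0120 in METTL5-WT and 0.101 ± 0.00419 in METTL5-KO (SD, n = 2), without overlap. This ratio does not give the proportion of the proteins. Of the 30-base coding windows of SDHA, 39.2% had another exact copy in hg38, and the effect of this on its footprints was not tested.

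At the end of the cycle, FH had RPF values of 2378 and 2403 in METTL5-WT against 3665 and 3364 in METTL5-KO (0.55 ± 0.10 on the log2 scale, limma adjusted p = 0.000408). MDH2 had 2708 and 2322 against 3511 and 3698, a log2 fold change of 0.52 ± 0.11 (limma adjusted p = 0.00152). Both genes were higher in both METTL5-KO libraries, and the METTL5-WT libraries of MDH2 differed from each other more than those of FH.

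In all, 7 of 9 members passed the limma RPF test upward and 0 downward, where 16.2% of 11240 genes passed upward and 13.1% downward. Those 11240 genes reach down to a mean value of 1, and the share among genes covered like the members was not counted. In edgeR on the recovered reads the count was again 7 higher and 0 lower, against 14.4% and 13.7% of 11130 genes. The median RPF log2 fold change of the members was 0.50, and that of all genes tested was 0.02. IDH3A lost its RPF call without METTL5-WT replicate 1 (limma adjusted p = 0.116) and in limma without the variance trend (limma adjusted p = 0.0618), and the other 6 called members kept theirs in all 17 alternatives.

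**Figure D2:**
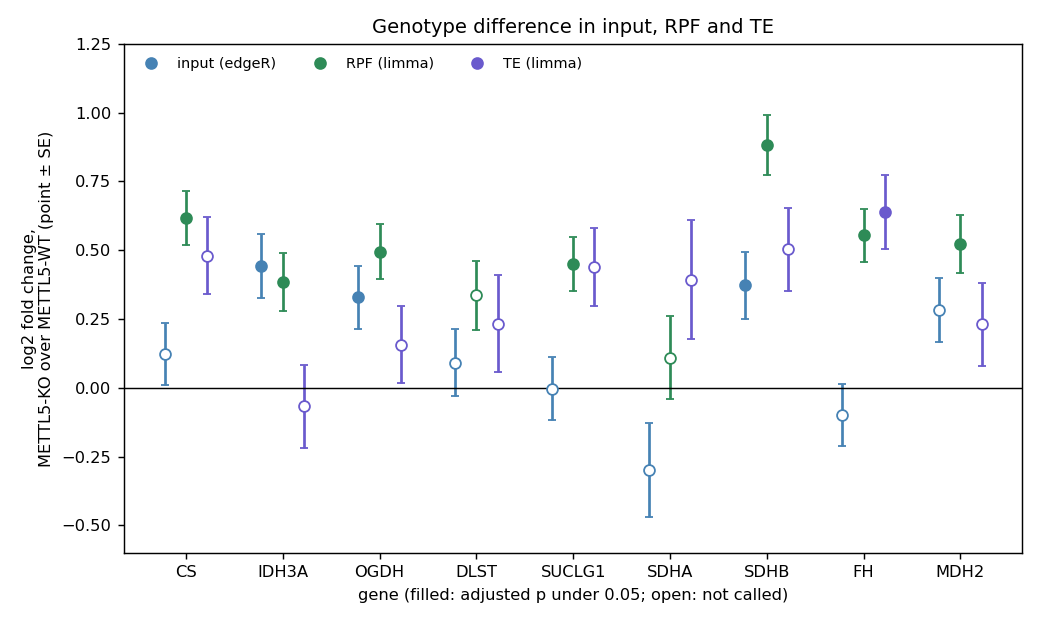
Log2 fold change of METTL5-KO over METTL5-WT (vertical axis, point ± SE) for each of the 9 genes in input (edgeR), RPF and TE (limma); filled points had an adjusted p under 0.05 and open points did not. There are 7 filled RPF points and 3 filled input points, and FH has the single filled TE point.

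The next question was whether the RNA behind these footprints differed. IDH3A had 1404 and 1342 input counts in METTL5-WT against 2324 and 2426 in METTL5-KO. After scaling these were 956 and 954 against 1401 and 1218, both METTL5-KO values higher, with a log2 fold change of 0.44 ± 0.12 (edgeR adjusted p = 0.00800). SDHB, with scaled input values of 1460 and 1592 against 1809 and 2176, changed by 0.37 ± 0.12 (edgeR adjusted p = 0.0287). The lower METTL5-KO value of SDHB lay closer to the METTL5-WT values than to its own replicate. OGDH had 1608 and 1660 against 1957 and 2183, a change of 0.33 ± 0.11 (edgeR adjusted p = 0.0426). These 3 were the only members called in input, all higher in METTL5-KO, where 11.8% of 14054 genes were called higher and 10.6% lower. None of these calls held without METTL5-WT replicate 1 or without METTL5-WT replicate 2, fits in which calls over all genes also fell. The log2 fold changes of IDH3A, SDHB and OGDH were 0.45, 0.31 and 0.31 without METTL5-WT replicate 1. Without METTL5-WT replicate 2 they were 0.44, 0.44 and 0.35.

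The other 6 members did not pass in input. MDH2 was at 1631 and 1570 against 1829 and 2099 (0.28 ± 0.12, edgeR adjusted p = 0.0864) and CS at 1767 and 1684 against 1878 and 1914 (0.12 ± 0.11, edgeR adjusted p = 0.480), both without overlap. DLST at 558 and 610 against 597 and 658, and SUCLG1 at 1336 and 1308 against 1354 and 1310, overlapped between genotypes. FH lay the other way, at 1606 and 1698 against 1570 and 1545, with a log2 fold change of -0.10 ± 0.11 (edgeR adjusted p = 0.584). The median input log2 fold change of the 9 was 0.12, against -0.0043 over all genes tested.

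SDHA input stood apart from the rest. It had 224 and 204 counts in METTL5-WT against 204 and 241 in METTL5-KO, which after scaling were 153 and 145 against 123 and 121, with a log2 fold change of -0.30 ± 0.17 (edgeR adjusted p = 0.227). In the annotation used for counting, 90.2% of its coding bases also lie in exons of a gene on the same strand, ENSG00000286001, which had 7 and 0 input counts in METTL5-WT against 9 and 3 in METTL5-KO. The counting command in the file header carries no option to count reads that lie over more than 1 gene. For CS the shared part was 14.4% of coding bases and for the other 7 members 0%. What this overlap did to the SDHA counts was not tested, and its input and TE values are given with that limit.

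Copies elsewhere in the genome touch further members. Among 30-base windows of the coding sequence, about the length of a footprint, 52.2% of those of CS had another exact copy in hg38 outside the gene, as had 39.2% for SDHA, 31.0% for DLST and 14.5% for FH. For OGDH and SDHB the share was 0.460% and 0.246%, and for IDH3A, SUCLG1 and MDH2 it was 0%. RPF log2 fold changes were 0.62 for CS, 0.11 for SDHA, 0.34 for DLST and 0.55 for FH. They were 0.50 for OGDH and 0.88 for SDHB, and 0.39, 0.45 and 0.52 for the 3 members with no such copy. What the copies did to the read counts was not tested.

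**Figure D3:**
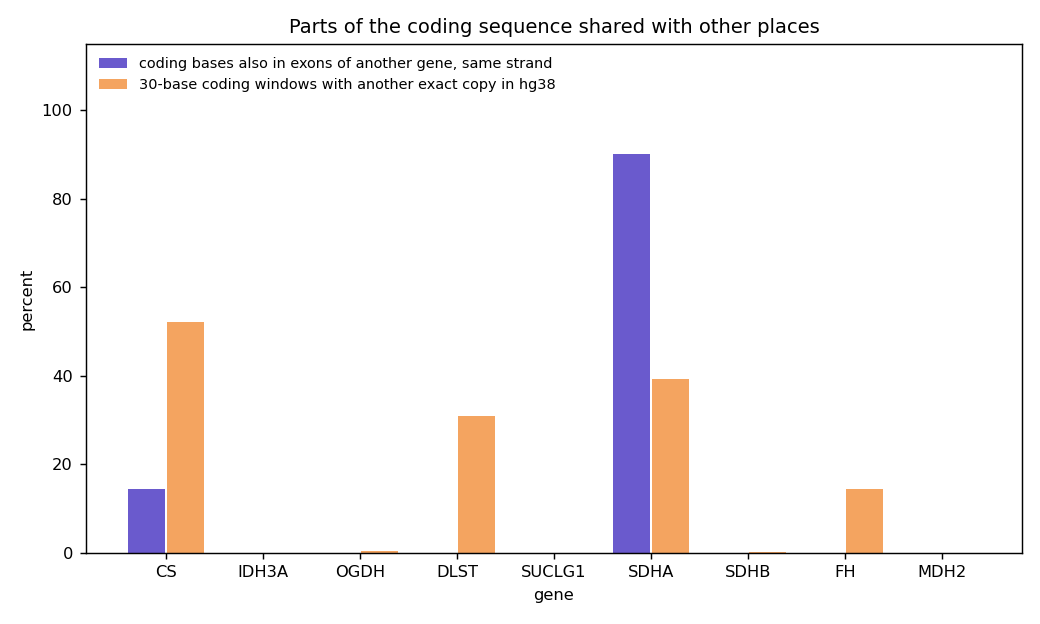
Percent (vertical axis) of each gene's coding bases that lie in same-strand exons of another gene (purple) and of its 30-base coding windows with another exact copy in hg38 (orange). SDHA is at 90.2% and 39.2%, CS at 14.4% and 52.2%, while IDH3A, SUCLG1 and MDH2 are at 0% in both.

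The third comparison set footprints against input from the same model, as TE. Log2 TE of FH, log2(RPF value + 1) minus log2(input value + 1), was 0.57 and 0.50 in the METTL5-WT lysates against 1.22 and 1.12 in the METTL5-KO lysates. Both METTL5-KO values were above both METTL5-WT values, and the difference of 0.64 ± 0.14 was the only TE change called among the 9 (limma adjusted p = 0.0152, edgeR adjusted p = 0.0113). That is 1 of 9 members higher, where 2.7% of 11240 genes were called higher and 2.08% lower. In edgeR on recovered reads it was also 1 of 9, against 3.11% and 3.85% of 11130 genes. Leaving out any of the 4 lysates ended the FH call, with limma adjusted p from 0.0658 to 0.111 and the difference from 0.59 to 0.69.

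CS, SDHB and SUCLG1 came next. Log2 TE of CS was -0.51 and -0.42 against 0.098 and -0.066, a difference of 0.48 ± 0.14 (limma adjusted p = 0.0560). SDHB went from 0.27 and 0.054 to 0.84 and 0.49 (0.50 ± 0.15, limma adjusted p = 0.0672), and SUCLG1 from 0.68 and 0.62 to 0.98 and 1.19 (0.44 ± 0.14, limma adjusted p = 0.0786). These groups did not overlap, and the differences were not called in limma or in edgeR. Each had an unadjusted limma p under 0.05 (0.00297, 0.00427 and 0.00611), as had 2537 of all 11240 genes tested. With each lysate as a block, CS (limma adjusted p = 0.0450) and SDHB (limma adjusted p = 0.0458) passed beside FH, so that 3 of 9 were called against 4.17% of all genes higher and 2.89% lower. The block called FH only, 1 of 9, in edgeR on recovered reads (CS and SDHB at adjusted p = 0.0577 and 0.0515) and in limma with the GC trend removed (CS and SDHB at adjusted p = 0.0638 and 0.0791). DESeq2 on the recovered reads called 4 of 9, which were CS, SUCLG1, SDHB and FH, where it called 4.35% of all genes higher and 3.26% lower.

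For MDH2, DLST and OGDH the TE differences were 0.23 ± 0.15, 0.23 ± 0.18 and 0.16 ± 0.14 (limma adjusted p = 0.379, 0.454 and 0.538). SDHA, with log2 TE of 2.30 and 2.13 against 2.68 and 2.54, differed by 0.39 ± 0.22 (limma adjusted p = 0.291). IDH3A was the exception in direction, at 0.013 and 0.11 against -0.10 and 0.093, groups that overlapped with a difference of -0.067 ± 0.15 (limma adjusted p = 0.836). Its RPF and input log2 fold changes, 0.39 and 0.44, were alike in size. Over the 9 members the median TE difference was 0.39, against 0.02 over all genes tested. The difference was above 0 in 8 of 9 members and in 5818 of 11240 genes tested.

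The RPF value per kb of coding sequence over the input value per kb of exon described how densely each message was covered. In METTL5-WT it was 20.5 ± 1.63 for SDHA (SD, n = 2), the gene with the shared exons, and 2.02 ± 0.0649 for FH to 6.48 ± 0.316 for IDH3A among the other 8. In METTL5-KO, SDHA stood at 27.0 ± 1.89, FH at 3.14 ± 0.155, DLST at 2.73 ± 0.255 and IDH3A at 6.19 ± 0.589. These levels and the order of the other 8 depended on the length used. Per kb of the canonical transcript, METTL5-WT values were 6.31 ± 0.501 for SDHA, still the highest, 3.88 ± 0.189 for IDH3A, 1.91 ± 0.0512 for SUCLG1 in place of 6.27 ± 0.168, and 1.35 ± 0.145 for SDHB, then the lowest. The order of SUCLG1 and IDH3A in METTL5-KO, and that of FH and DLST in METTL5-WT, turned between the lengths.

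TE differences went with coding GC content over the whole table, and the members were set against that. Over 10 bins of genes by GC content the median TE difference ran from 0.31 in the lowest bin to -0.37 in the highest. Of the 9 members, 8 lay above the median of their bin, with FH at 0.64 against 0.22, SDHB and CS at 0.50 and 0.48 against 0.088, and MDH2 at 0.23 against -0.070. IDH3A lay below, at -0.067 against 0.14. With the trend removed the FH difference was 0.47 ± 0.11 (limma adjusted p = 0.0451), and FH was again the 1 member called, where 1.94% of 11208 genes were called higher and 0.857% lower.

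**Figure D4:**
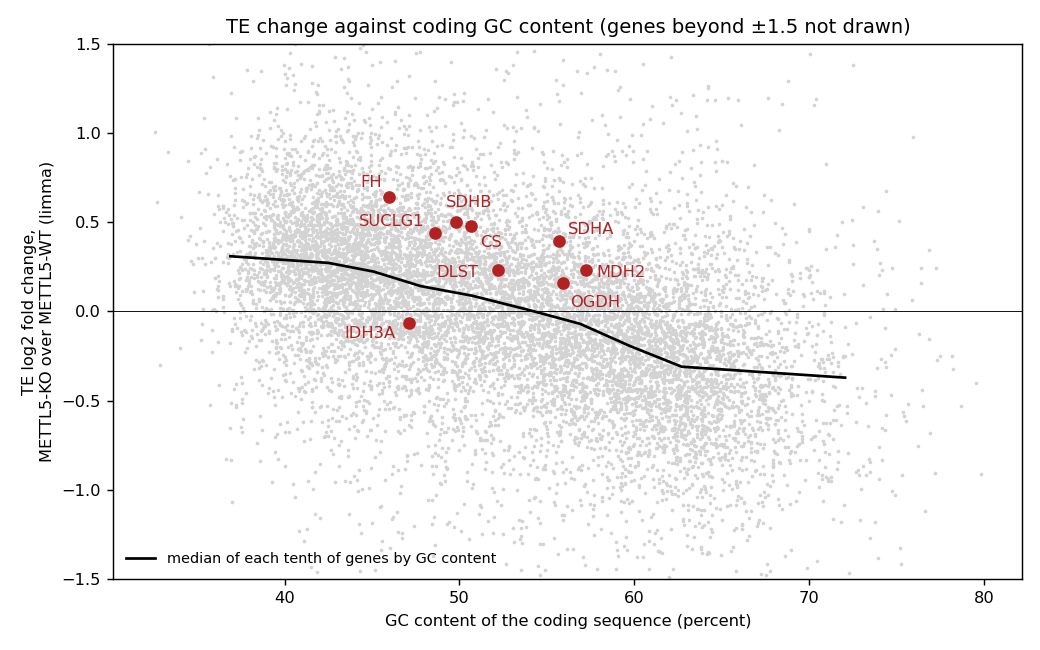
TE log2 fold change of METTL5-KO over METTL5-WT (vertical axis, limma) against GC content of the coding sequence in percent (horizontal axis), with all genes in grey, the 9 genes in red and a line through the median of each of 10 bins. The line falls from 0.31 to -0.37, and 8 of the 9 red points lie above the median of their bin, with IDH3A below.

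Partners of the members in the same enzyme did not all move with them. IDH3G, a regulatory subunit of the enzyme of IDH3A, was higher in input (0.47 ± 0.13, edgeR adjusted p = 0.00984) and RPF (0.41 ± 0.12, limma adjusted p = 0.0148), whereas IDH3B, the other such subunit, had -0.30 ± 0.12 and -0.022 ± 0.11 and passed neither test. The ratio of IDH3A to IDH3G footprints per kb overlapped between genotypes at 1.41 ± 0.0127 and 1.38 ± 0.0613, and that of IDH3A to IDH3B went from 0.335 ± 0.0216 to 0.445 ± 0.00791. The OGDH to DLST ratio of footprints per kb was 3.23 ± 0.0314 in METTL5-WT and 3.61 ± 0.192 in METTL5-KO, without overlap. DLD, the third enzyme of that complex, had an RPF log2 fold change of 0.28 ± 0.13 (limma adjusted p = 0.120). SUCLG2 and SUCLA2, the beta subunits that pair with SUCLG1, had RPF log2 fold changes of -0.037 ± 0.17 and -0.074 ± 0.16 and were not called. In complex II, the membrane subunit SDHC had -0.24 ± 0.14 (limma adjusted p = 0.212), and its ratio to SDHB footprints per kb went from 0.481 ± 0.0405 to 0.221 ± 0.0310. The other membrane subunit, SDHD, is not in the TE table, and its input log2 fold change was 0.35 ± 0.14 (edgeR adjusted p = 0.0796). Of the 30-base coding windows, 64.9% in SDHC, 46.7% in SUCLG2 and 32.9% in SUCLA2 had another copy in the genome.

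Of 12 tested genes in the list of other TCA subunits and isoforms, 3 were higher in RPF, IDH3G and the cytosolic isoforms MDH1 (0.58 ± 0.11, limma adjusted p = 0.000879) and ACO1 (0.42 ± 0.12, limma adjusted p = 0.0129), and 0 were lower in limma or edgeR, with 1 below an unadjusted p of 0.05 in each. Over all genes tested, limma called 16.2% higher and 13.1% lower in RPF. The median RPF log2 fold change of that list was 0.065, against 0.50 for the members.

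Among the 4 assembly factors of complex II, 2 were higher in RPF in limma and 1 in edgeR, against 16.2% and 14.4% of all genes. SDHAF3, which takes part in the maturation of SDHB, rose by 0.89 ± 0.19 in RPF (limma adjusted p = 0.00218) and by 1.32 ± 0.27 in TE (limma adjusted p = 0.0131). SDHAF4, which acts on SDHA, had an RPF log2 fold change of 0.70 ± 0.25 (limma adjusted p = 0.0457, edgeR adjusted p = 0.0546). The other 2 factors were not called in RPF, with log2 fold changes of -0.48 ± 0.35 for SDHAF1 (limma adjusted p = 0.334) and 1.08 ± 0.43 for SDHAF2 (limma adjusted p = 0.0674).

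Genes that feed the cycle were mixed. Of 14 genes of pyruvate entry, 7 were higher in RPF and 3 lower in limma, where 16.2% of all genes were called higher and 13.1% lower. The 7 included the pyruvate carrier subunit MPC1 (1.05 ± 0.24, limma adjusted p = 0.00384), the dehydrogenase subunits PDHA1, DLAT and PDHX (0.34 to 0.35), the dehydrogenase kinases PDK3 and PDK4 (0.48 and 0.98) and the phosphatase PDP1 (0.89). The 3 were pyruvate carboxylase PC (-0.64 ± 0.14, limma adjusted p = 0.00193), PDP2 and PDPR, all also lower in input, while MPC1 and PDP1 were also higher there. Of 20 tested genes of anaplerosis and exchange, limma called 6 higher in RPF (GLUD1, ME1, ME3, SLC25A11, SLC25A13 and PCCB). It called 2 lower, PCCA among them, against the same 16.2% and 13.1%. In edgeR 6 were called higher and 3 lower, against 14.4% and 13.7% of all genes. The median in limma was 0.046. In input, 5 of 21 genes of anaplerosis and exchange were higher, GOT1, ME1, ME3, SLC25A1 and SLC25A13. The 3 lower ones included GOT2 and ACSS1. Over all genes tested in input, 11.8% were called higher and 10.6% lower. In TE 0 genes of either list passed in limma or edgeR, with 2 and 6 genes at an unadjusted limma p under 0.05. Over all genes tested, limma called 2.7% higher and 2.08% lower in TE, and 2537 of 11240 had an unadjusted p under 0.05.

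Of 72 respiratory chain and ATP synthase subunits in the table, 37 were higher and 1 lower in RPF. Among all genes tested 16.2% and 13.1% were. The median RPF log2 fold change was 0.34 against 0.50 for the members. In TE 10 were higher and 0 lower in limma (22 and 5 at an unadjusted p under 0.05) and 11 and 2 in edgeR. Over all genes tested limma called 2.7% higher and 2.08% lower in TE, and edgeR 3.11% and 3.85%. The median TE difference was 0.21 against 0.39. With the trend on coding length removed these TE medians were 0.097 and 0.41. The shorter coding sequences of the respiratory list are set out above, and the difference between the lists was not tested.

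**Figure D5:**
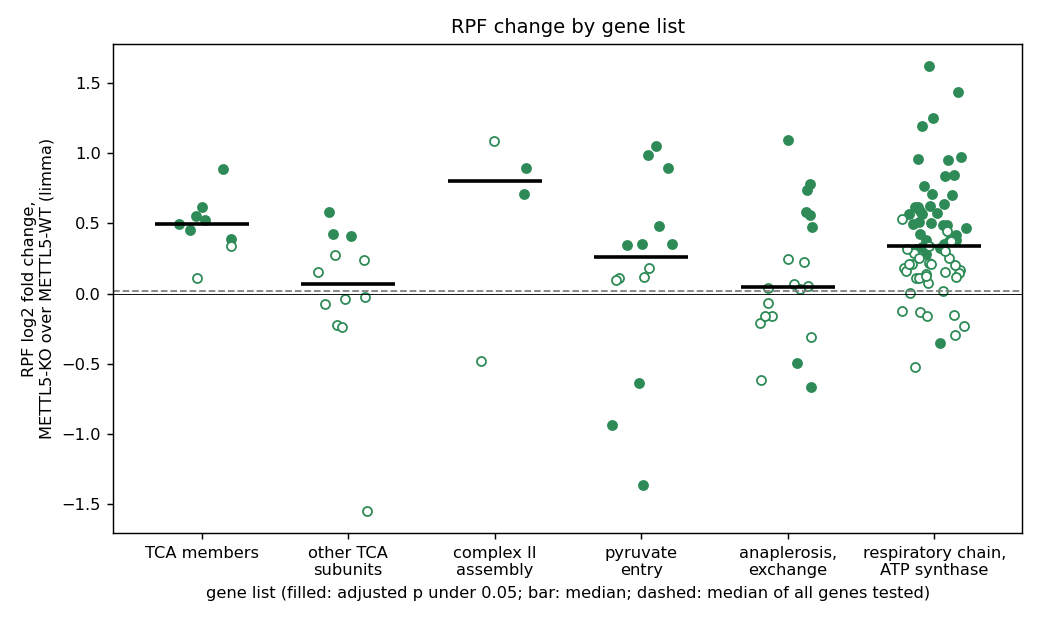
RPF log2 fold change of METTL5-KO over METTL5-WT (vertical axis, limma) for the 9 TCA members and 5 related gene lists (horizontal axis); each point is a gene, filled where the adjusted p was under 0.05, bars are list medians and the dashed line is the median of all genes tested, at 0.02. The members' median is 0.50 with every point above 0, and the lists of pyruvate entry and of anaplerosis hold filled points on both sides of 0.

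Across the 8 libraries, with each gene centred within input and within RPF, the members' profiles followed their mean with Pearson's r of 0.79 (IDH3A) to 0.99 (SDHB), except SDHA at 0.085. These values describe 8 libraries from 4 lysates in which each member is part of the mean. The 5 genes closest to that mean, of 7670 with a mean of at least 100 in both library types, were MAX, TMBIM6, AKIP1, PRDX6 and UQCR10, with r of 0.994 to 0.991. They were picked for that likeness, so their changes are a description and no support. The TE difference had an adjusted p under 0.05 in limma for UQCR10, a complex III subunit, and PRDX6, a peroxiredoxin (0.00157 and 0.0162), and not for AKIP1, MAX or TMBIM6 (0.0798, 0.0858 and 0.197).

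The genes around each member on its chromosome were also examined in input, and copy number itself was not tested. The median input log2 fold change of up to 20 tested genes on either side lay between -0.12 (DLST) and 0.22 (MDH2). For IDH3A it was -0.089 against 0.44 for the gene itself, for SDHB 0.070 against 0.37, and for OGDH 0.17 against 0.33. For MDH2 it was 0.22 against 0.28, for CS 0.035 against 0.12, and for DLST -0.12 against 0.091. For FH it was -0.12 against -0.099, for SUCLG1 0.16 against -0.0027, and for SDHA 0.17 against -0.30.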

How the data were processed

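The authors merged 2 flowcells, trimmed reads with BBDuk and aligned input reads to hg38 with STAR 2.7.3a. The input table holds the authors' deposited raw counts of uniquely mapped reads per gene by strand from featureCounts, named 1.6.0 in the methods and another release in the file header. RPF reads were cleared of ribosomal RNA and processed in RiboToolkit. In the TE table the authors' signal values, which they name RPKM, are whole reads times a constant per library: 100% of values were whole within 0.05 reads and 100% of input values equalled the count table. The authors' own fold changes and p-values were not used. The plan had assumed normalized values, so the log-scale test stayed the main one for RPF and TE.

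The input test was the quasi-likelihood test of edgeR 4.0.16 after TMM and filterByExpr (14054 genes). For RPF and TE, log2(value + 1), a scale that understates changes of low genes, was fitted with limma 3.58.1 (trended eBayes) in a single model of 8 libraries. It covered the 11240 genes whose mean value reached 1 in both library types, with TE as the genotype by library type interaction. P-values are two-sided, Benjamini-Hochberg adjusted over all genes tested, and called under 0.05. On simulated counts the limma RPF test made more false calls than its threshold allows, so edgeR on the recovered reads is given beside it. DESeq2 1.42.0, R 4.3.3, Python 3.11.15 and matplotlib 3.10.9 were also used. An exact permutation of 2 against 2 cannot go below p = 0.333 and was not used for single genes.

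Input and RPF of the same genotype and number come from the same lysate per the protocol, although their deviations hardly correlated (r = -0.016 in METTL5-WT and 0.053 in METTL5-KO, 11240 genes). Replicate numbers across genotypes are numbers only. Named genes were the 9 members, METTL5, partners of their enzymes, genes of 4 pathway lists called in any test, and the 5 genes with the most similar profiles, and 2 of the genes so chosen are not reported here. The members and lists were chosen with earlier results of these data known. Alternatives covered normalization, filters, pseudocount, tool, variance trend, GC and length trends, lysate blocks and each replicate left out. Coding sequences, GC content and start contexts came from GENCODE release 44, which matched 99.7% of the TE table.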

Additional observations from a re-analysis of the deposited data

How the results depend on the processing

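RPF member counts stayed within 6 to 8 in all 17 alternatives. The size of the differences depended on normalization. Under quantile normalization the members' median log2 fold change was 0.35 in RPF and 0.28 in TE, against -0.00097 and 0.014 over all genes. The TE differences of MDH2 and OGDH were then 0.077 and 0.010. In TE, where limma called 1 member (FH), 0 were called without the variance trend and under quantile normalization (4 and 3 at an unadjusted p under 0.05), 2 with libraries centred on their medians, 3 with the replicate block on the lysate and 4 with DESeq2. The FH difference was 0.47 under quantile normalization (adjusted p = 0.0552) and it was called in 12 of 18 alternatives (limma, edgeR or DESeq2 adjusted p from 0.000784 to 0.151). Over all genes, the 538 TE calls became 855 with DESeq2, 1 without the variance trend (2158 at an unadjusted p under 0.05), 313 with the GC trend removed and 877 in edgeR with the lysate block, an alternative added after seeing the data. The lysate block gave 794 calls in limma, and 470 with the GC trend removed too. The split of TE calls moved from 304 higher and 234 lower to 205 and 281 under quantile normalization, 350 and 199 with centring, 346 and 428 in edgeR and 217 and 96 with the GC trend removed. The 3149 input calls became 1947 in limma on the TE table, 1953 with the GC trend removed and 1992 with the length trend removed. A block on the replicate number, which the labels do not tie to a shared batch, gave 3554 calls in input and 3513 in RPF and changed no member's call there.

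Leaving out each replicate in turn gave 1220 to 5474 calls in input, 1986 to 2772 in RPF and 4 to 266 in TE, and among the members 0 to 4 in input, 6 to 7 in RPF and 0 in TE (2 to 4 at an unadjusted p under 0.05 in limma). The arm left with 1 sample was assumed to vary like the others. The SUCLG1 input difference, near 0, changed sign in several fits, to 0.0013 with RLE size factors, 0.025 without the count filter, 0.0023 in DESeq2, 0.011 in limma on the TE table, 0.040 with the GC trend removed and -0.015 to 0.021 with a replicate left out. SDHA RPF ranged from -0.0079 to 0.23 and the IDH3A TE difference from -0.16 to 0.030 with a replicate left out. The cause of these shifts was not tested. DLST is limited by its 165 to 450 RPF reads and SDHA by its 204 to 241 input counts.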
